A study of Danio rerio with 20 samples.

Results

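The genes described here encode the chaperones and chaperonins of the zebrafish other than HSP90, together with the co-chaperones and prolyl isomerases that work with them. They were taken by symbol from the table of expressed genes, as every symbol beginning with hsp and a digit or the letter a, b, d or e, with cct or bag and a digit, or with tcp1, dnaj, stip1, ahsa1, ptges3 or fkbp. The pattern matched 78 symbols, of which 4 were HSP90 genes and were left out, so that 74 of the 9368 genes in the table were members. Expression was measured by shallow RNA-Seq in whole AB strain embryos at 72 hpf, the protruding mouth stage, in pools of 8 to 10 embryos. Embryos were exposed from the sphere stage on to pH-neutralized HFPO-DA (hexafluoropropylene oxide-dimer acid, sold as GenX), a perfluorinated ether acid used in place of PFOA, at 0.5 mg/L or a higher level (1 and 2 mg/L, and 10 mg/L as the highest). Untreated controls were kept in embryo water, and all embryos were held singly in wells. Values were analysed from 3 control pools, lettered a to c, and from 4 pools, lettered a to d, at each exposure. A control pool d, which the labels call an outlier, was not analysed here. Nothing in the labels says whether pools of a group came from separate clutches, so the p-values measure the spread between these pools.

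Newly made proteins and proteins unfolded by stress expose greasy surfaces that stick together. HSP70 proteins bind such stretches in cycles driven by ATP, J-domain proteins deliver the clients and trigger ATP hydrolysis, and HSP110 and BAG proteins help to release the nucleotide. Chaperonins are barrels that enclose a protein while it folds. The cytosolic chaperonin, built from different subunits that each have their own gene, folds actin and tubulin, and the mitochondrial chaperonin is made of HSP60. Small heat shock proteins hold unfolded proteins without using ATP, HSP90 co-chaperones set the pace of the HSP90 cycle, and FKBP proteins turn proline bonds. Some of these genes are always on, and others are switched on by heat shock factor or by unfolded proteins in the endoplasmic reticulum.

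Reads on genes ranged from 104350 to 581494 per pool, with a median of 345832 in control pools, 188740 in 0.5 mg/L pools, 167419 in 1 mg/L pools, 215054 in 2 mg/L pools and 286989 in 10 mg/L pools. Values are the TMM-normalized values of the table, in which zeros had been replaced by the value of 0.5 reads, and fold changes are differences of log2(value + 0.5). Levels are compared between pools and not between genes, since the values were not scaled to the length of the genes. Of the 74 members, 66 passed the filter on low values and were tested, and 37 of those had at least 10 reads per pool on average. Markers of 9 tissues were checked, and every marker in the table had reads. The 5 photoreceptor markers, all in the table, had a summed value of 1968 to 2637 in control pools, against 1448 to 1797 in 0.5 mg/L pools, 1416 to 1699 in 1 mg/L pools, 1350 to 1959 in 2 mg/L pools and 1352 to 2536 in 10 mg/L pools. Among these markers, the study reported opn1sw1, opn1sw2, opn1mw1 and gnat2 as lower at every exposure in the same data. The photoreceptor sum is therefore no separate check. The 2 of 4 neuron markers in the table summed to 267 to 378 in control pools and to 229 to 262, 268 to 337, 257 to 310.0 and 236 to 277 in the order of the exposures. The 4 of 5 skeletal muscle markers in the table summed to 10839 to 14990 in control pools and to 14031 to 15791, 12595 to 14378, 14468 to 16152 and 11138 to 16265 in the same order. The summed markers of red cells, epidermis, heart, lens, liver and yolk, and exocrine pancreas overlapped the control pools at every exposure. Red cell markers averaged 240 in control pools and 246, 228, 272 and 336 in the order of the exposures. The part that these tissues had in the members' values was not tested, and in RNA of whole embryos fewer cells of a type and less RNA per cell cannot be told apart.

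No member passed the test (limma, Benjamini-Hochberg adjusted p under 0.1 over all genes) against control at any exposure. Of 66 members tested, 0 were called at 0.5 mg/L (0% of all 6933 genes were called), 0 at 1 mg/L (0% of all genes), 0 at 2 mg/L (0.0144% of all genes, 1 gene) and 0 at 10 mg/L (0.0144% of all genes, 1 gene). In the fit of all 5 groups, 0 members were called between the mean of the 4 exposures and control (0% of all genes), and 0 were called for differences among the 4 exposures (0% of all genes). The smallest adjusted p of a member in the order of the exposures was 0.786 (bag3), 0.894 (hspa4a), 0.912 (hspb9) and 0.967 (hspa4a), and 0.980 in the mean of the exposures (hspa4a). The gene called at 2 mg/L was zgc:73359, and the gene called at 10 mg/L was the HSP90 gene hsp90aa1.2, whose log2 fold change was -0.97 with an adjusted p of 0.0618. On the reads recovered from the table, edgeR and DESeq2 also called 0 members in each of these comparisons.

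The counts at an unadjusted p under 0.05 were small and leaned to lower values. At 0.5 mg/L, 2 members were lower (dnajc18 and tcp1, 3.03% of members against 3.52% of all genes) and 1 was higher (bag3, 1.52% against 2.68%). The 1 mg/L exposure gave 8 lower members (ahsa1b, dnajb1a, fkbp1b, fkbp8, hsp70l, hspa4a, hspd1 and tcp1), 12.1% of members against 2.28% of all genes, and 0 higher members against 1.69% of all genes. At 2 mg/L 4 were lower (dnajc18, dnajc3b, hsp70.3 and hspb9, 6.06% against 2.8%) and 1 was higher (dnajc12, 1.52% against 2.05%). The control pools of dnajc12 had 1, 0 and 5 reads, and no exposed pool lay above the highest of them. At 10 mg/L 4 were lower (cct7, dnajb1a, hspa4a and hspa9, 6.06% against 2.37%) and 0 were higher (1.85% of all genes). For the mean of the exposures 5 were lower (cct7, dnajc18, fkbp8, hspa4a and tcp1, 7.58% against 2.34%) and 0 were higher (2.42% of all genes). Among the exposures, 2 members were at an unadjusted p under 0.05 (ahsa1b and hspa5, 3.03% against 4.47%). These counts depended on single pools. The 3 at 0.5 mg/L became 7 without control pool a, 6 without pool d of the exposure and 0 without control pool c, and the 8 at 1 mg/L became 5 without control pool a. The 5 at 2 mg/L became 2 without pool c of the exposure, the 4 at 10 mg/L became 10 without pool a of the exposure and 7 without control pool a, and the 5 in the mean became 3 without control pool c. The 2 for differences among the exposures became 1 without pool b or c at 0.5 mg/L, and 4 without pool d at 0.5 mg/L, pool a or c at 1 mg/L or pool a or d at 10 mg/L. By edgeR the counts were 2, 10, 4 and 8 in the order of the exposures and 8 in the mean. By DESeq2 they were 0, 3, 0 and 1, and 3 in the mean. The shares of all genes with a pool left out, by edgeR or by DESeq2 are not given. Whether these counts exceed those shares therefore cannot be told.

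The median log2 fold change of the 66 tested members was -0.07, -0.13, -0.14 and -0.13 in the order of the exposures, beside -0.06, -0.04, -0.04 and -0.04 over all genes tested. In the mean of the exposures the members' median was -0.10 and that of all genes -0.05, and 47 of 66 members (71.2%) were below 0 against 56.8% of all genes. Among the 37 members with at least 10 reads, 30 (81.1%) were below 0 against 61.6% of the 2874 genes with as many reads, with a median of -0.11 against -0.07. Control pools of 6 of the tested members (bag2, bag3, dnajb12b, dnajc25, fkbp1ab and fkbp7) had 3 or fewer reads each, and without them the median was -0.13 over 60 members. That choice rests on control reads alone, so it favours lower fold changes among the members kept. The median of all genes under the same choice is not given, so no lean is read from this shift. Rescaling the reads to CPM moved the median of all genes in the mean of the exposures from -0.05 to -0.18, and that of the members to -0.19.

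**Figure D1:**
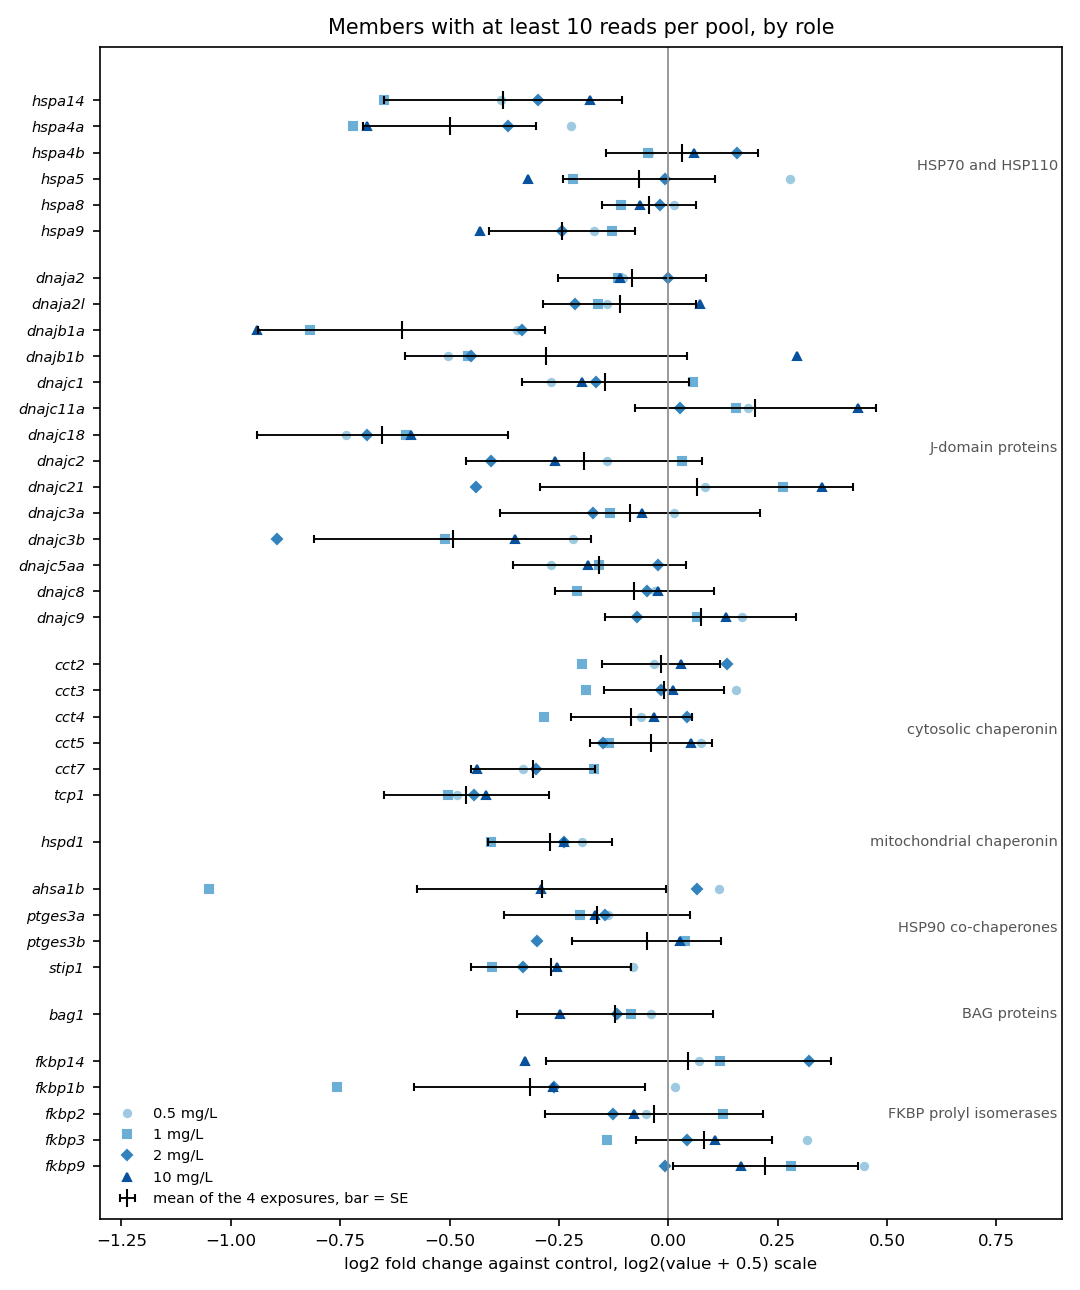
Log2 fold change against control of the 37 members with at least 10 reads per pool, grouped by role. Symbols show each exposure, the black tick and bar show the mean of the 4 exposures and its SE. Most black ticks lie left of 0, from -0.65 for dnajc18 to 0.22 for fkbp9, and the symbols of a gene are not independent, since all exposures share the 3 control pools.

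Among the HSP70 and HSP110 genes, hspa8 stood near the control level at each exposure, hspa5 lay above control in the mean at 0.5 mg/L and below it at 10 mg/L, and hspa4a was lower in most exposed pools. The group had 9 members, of which 8 were tested, 0 were called and 7 were below 0 in the mean of the exposures, with a median log2 fold change of -0.31. The gene hspa8 encodes HSC70, the HSP70 of the cytosol that is made without stress. Its values were 1588, 1159.7 and 1242 in control pools a to c, 1442, 1341, 1376 and 1175 in 0.5 mg/L pools, 1341, 1152, 1221 and 1186 in 1 mg/L pools, 1493, 1317, 1246 and 1166 in 2 mg/L pools and 1366, 1335, 1243 and 1113 in 10 mg/L pools. Pool a was the highest of each of the 5 groups, and the groups overlapped, with a log2 fold change of -0.04 (SE 0.11) in the mean of the exposures (adjusted p = 0.991), or 0.09 without control pool a. The gene hspa5 encodes BiP, the HSP70 of the endoplasmic reticulum, which rises when unfolded proteins build up there. It stood at 193, 112 and 136 in control pools, 219.6, 186, 206 and 109 in 0.5 mg/L pools, 163, 127, 124 and 89.2 in 1 mg/L pools, 179, 169.6, 139 and 97.4 in 2 mg/L pools and 148, 129, 91.2 and 99.2 in 10 mg/L pools. Here too pool a was the highest of each of the 5 groups, and pool d was the lowest of each exposure but 10 mg/L. Its log2 fold changes were 0.28 (SE 0.20), -0.22 (SE 0.20), -0.007 (SE 0.19) and -0.32 (SE 0.20) from the lowest to the highest exposure, and no adjusted p against control was below 0.862.

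**Figure D2:**
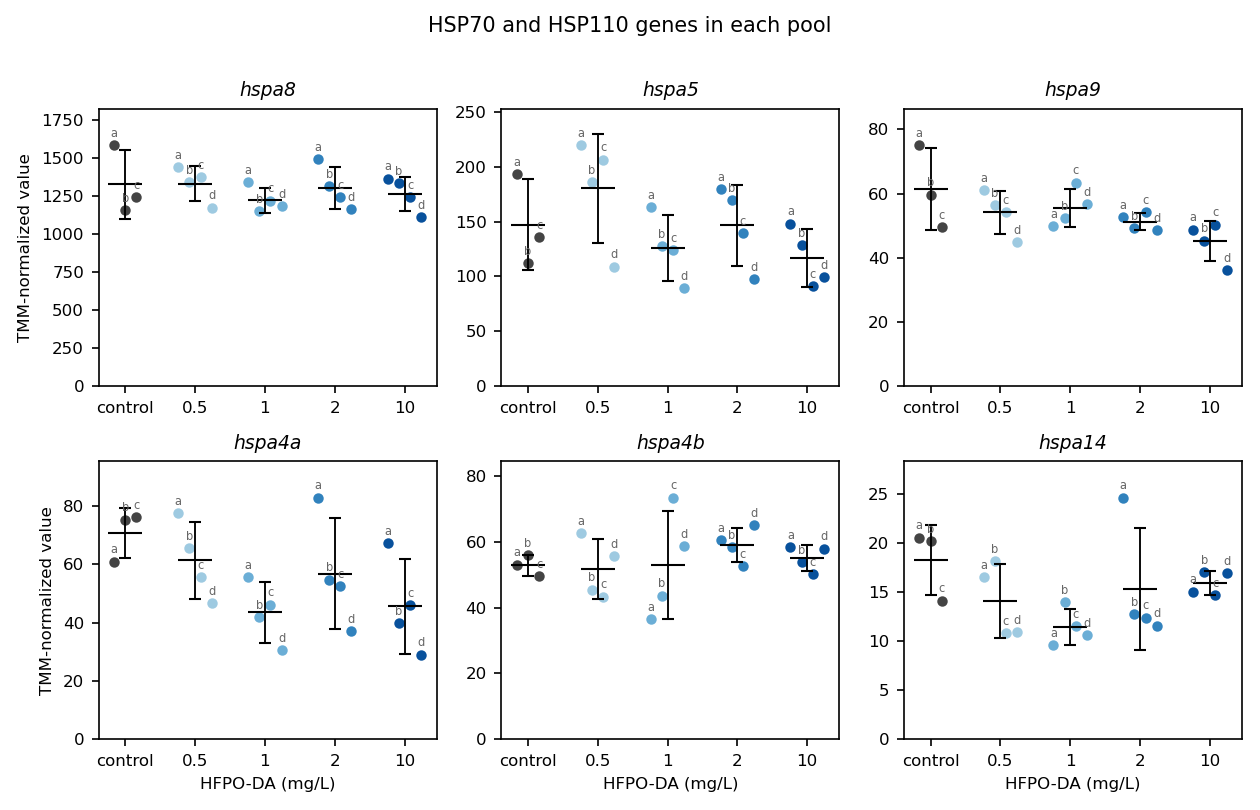
TMM-normalized values of 6 HSP70 and HSP110 genes in each pool, by exposure in mg/L. Points are pools with their letters, the long tick and bar are the group mean and SD (n = 3 for control and 4 for each exposure), and each axis starts at 0. Pool a is the highest of every group for hspa8 and hspa5, and pool d is the lowest of every exposure for hspa4a.

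The HSP110 proteins hspa4a and hspa4b are exchange factors that recharge HSP70 with ATP. Values of hspa4a were 61.0, 75.4 and 76.3 in control pools, 77.6, 65.5, 55.6 and 46.8 in 0.5 mg/L pools, 55.6, 41.9, 46.1 and 30.5 in 1 mg/L pools, 82.9, 54.7, 52.6 and 37.1 in 2 mg/L pools and 67.4, 39.7, 46.1 and 29.0 in 10 mg/L pools. In 12 of 16 exposed pools hspa4a was below every control pool and in 2 it was above every one, and at 1 mg/L the groups did not overlap. Counts of some of the 16 exposed pools, here and below, have no count over all genes beside them, and the exposures share the same control pools. Pool a was the highest and pool d the lowest at each exposure, with pools a at 55.6 to 82.9 and pools d at 29.0 to 46.8. The log2 fold change of hspa4a was -0.22 (SE 0.20), -0.72 (SE 0.22), -0.37 (SE 0.21) and -0.69 (SE 0.23) in the order of the exposures and -0.50 (SE 0.20) in their mean, with adjusted p = 0.980 in the last. Its paralog hspa4b stood at 53.2, 56.1 and 49.5 in control pools, 62.7, 45.5, 43.4 and 55.8 in 0.5 mg/L pools, 36.5, 43.6, 73.5 and 58.7 in 1 mg/L pools, 60.5, 58.4, 52.6 and 65.1 in 2 mg/L pools and 58.5, 53.9, 50.3 and 58.0 in 10 mg/L pools. The groups of hspa4b overlapped at every exposure, and the log2 fold change in the mean of the exposures was 0.03 (SE 0.17). The difference between the paralogs was not tested, and reads that fit both could have been lost in the authors' counting.

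Mitochondrial HSP70, or mortalin, is encoded by hspa9 and pulls proteins into the matrix. Its values were 75.2, 59.7 and 49.5 in control pools, 61.1, 56.4, 54.3 and 44.9 in 0.5 mg/L pools, 49.9, 52.4, 63.4 and 56.8 in 1 mg/L pools, 52.7, 49.2, 54.2 and 48.7 in 2 mg/L pools and 48.7, 45.4, 50.3 and 36.3 in 10 mg/L pools. Control pool c lay among the exposed pools, 6 of 16 exposed pools lay under the control range and none over it, and the log2 fold change at 10 mg/L was -0.43 (SE 0.21, adjusted p = 0.967). The gene hspa14 encodes an HSP70 that in human cells works on the ribosome. It stood at 20.6, 20.2 and 14.2 in control pools, 16.5, 18.2, 10.9 and 10.9 in 0.5 mg/L pools, 9.59, 14.0, 11.5 and 10.6 in 1 mg/L pools, 24.7, 12.8, 12.4 and 11.6 in 2 mg/L pools and 15.1, 17.0, 14.7 and 16.9 in 10 mg/L pools. At 1 mg/L every pool of hspa14 lay below every control pool, the closest being 14.0 against 14.2, and the log2 fold change there was -0.65 (SE 0.33, adjusted p = 0.998).

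The heat-inducible genes hsp70.3 and hsp70l, markers of the heat shock response, had too few reads for the rule on named genes and are given because they report on stress, a choice made after values were seen. Over all pools hsp70.3 had 163 reads and hsp70l 139. The values of hsp70.3 were 19.1, 4.59 and 18.1 in control pools, 4.95, 5.46, 20.3 and 3.85 in 0.5 mg/L pools, 5.76, 3.49, 15.9 and 5.08 in 1 mg/L pools, 10.1, 9.12, 1.55 and 5.30 in 2 mg/L pools and 15.1, 6.62, 2.097 and 4.84 in 10 mg/L pools. Control pools a and c, at 27 and 23 reads, were high and control pool b, at 5 reads, was low, and 1 exposed pool was above all control pools. The log2 fold change of hsp70.3 in the mean of the exposures was -0.90 (SE 0.48). Values of hsp70l were 9.93, 11.0 and 12.6 in control pools, 3.30, 10.9, 8.14 and 5.77 in 0.5 mg/L pools, 5.76, 6.98, 2.88 and 3.70 in 1 mg/L pools, 5.60, 20.1, 9.29 and 0.965 in 2 mg/L pools and 16.8, 5.68, 8.39 and 1.21 in 10 mg/L pools, the last of them at 0 reads. In 13 of 16 exposed pools hsp70l was below every control pool and in 2 above, with a log2 fold change of -0.91 (SE 0.50) in the mean of the exposures. The inducible HSP70 genes are near copies of each other, so the share of each is uncertain. The ninth gene of the group, hspa13, had 15 reads in all and was not tested.

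The cytosolic chaperonin had 6 subunit genes in the table, and the log2 fold change in the mean of the exposures was within 0.1 of 0 for 4 of them and below -0.3 for cct7 and tcp1. All 6 were tested, 0 were called, and the median log2 fold change in the mean of the exposures was -0.06. Values of tcp1, subunit 1, were 78.0, 56.1 and 171 in control pools, 57.8, 69.1, 50.2 and 88.5 in 0.5 mg/L pools, 71.0, 50.6, 62.0 and 75.3 in 1 mg/L pools, 68.4, 52.9, 74.3 and 73.3 in 2 mg/L pools and 68.2, 74.7, 69.2 and 60.5 in 10 mg/L pools. Control pool c stood alone, control pools a and b lay among the exposed pools, and 3 of 16 exposed pools were below all control pools. Over the exposures together the log2 fold change of tcp1 was -0.46 (SE 0.19, adjusted p = 0.980), and it was -0.0057 without control pool c and -0.81 without control pool b. Within the summed value of the 6 subunits, tcp1 made up 22.1% in control pool c and between 8.01% and 12.8% in every other pool.

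Subunit cct7 gave 128, 126 and 119 in control pools, 97.4, 102, 93.6 and 101 in 0.5 mg/L pools, 125, 127, 104 and 89.6 in 1 mg/L pools, 112, 93.0, 91.4 and 107 in 2 mg/L pools and 102, 104, 94.4 and 70.14 in 10 mg/L pools. At every exposure but 1 mg/L each pool of cct7 was below every control pool, and 14 of 16 exposed pools were below all 3, the exceptions being pools a and b at 1 mg/L. The log2 fold change of cct7 was -0.33 (SE 0.17), -0.17 (SE 0.18), -0.30 (SE 0.17) and -0.44 (SE 0.18) in the order of the exposures and -0.31 (SE 0.14) in their mean, where it stayed between -0.34 and -0.28 when any pool was left out, and the adjusted p was 0.980. The share of cct7 in the summed subunits was 17.5% ± 2.41 (SD, n = 3) in control pools, 14.9% ± 0.461 in 0.5 mg/L pools, 18.7% ± 3.55 in 1 mg/L pools, 15.3% ± 1.42 in 2 mg/L pools and 14.1% ± 1.62 in 10 mg/L pools (n = 4 each).

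Values of cct2 were 130.5, 108 and 138 in control pools, 124, 120.1, 121 and 124 in 0.5 mg/L pools, 99.8, 94.3, 115 and 129 in 1 mg/L pools, 119.9, 146, 139 and 145 in 2 mg/L pools and 144, 122, 134 and 111 in 10 mg/L pools. For cct3 they were 122, 112 and 102, then 121, 129, 121 and 128, 84.4, 101, 96.6 and 112, 108, 93.0, 129 and 116 and 127, 113, 95.4 and 119 in the same order. The groups of both genes overlapped at every exposure. Subunit cct4 stood at 139.7, 108 and 147 in control pools, then 144, 106, 118 and 137, 109, 101, 108 and 110.0, 140.1, 124, 142 and 132 and 136, 133, 152 and 96.7. Subunit cct5 stood at 142, 116 and 99.1, then 132, 131, 123 and 110.3, 119, 92.5, 111 and 108, 114, 91.2, 102 and 118 and 128, 127, 97.5 and 140.3. At 1 mg/L cct4 kept within 101 to 110.0, at or near the level of control pool b, and the other groups overlapped the control pools. The log2 fold changes in the mean of the exposures were -0.02 (SE 0.13) for cct2, -0.010 (SE 0.14) for cct3, -0.08 (SE 0.14) for cct4 and -0.04 (SE 0.14) for cct5. The signs of cct2 and cct3 changed under some alternatives and with some pools left out, that of cct4 changed only without control pool c, and that of cct5 only without control pool a. The summed value of the 6 subunits was 714 ± 77.9 (SD, n = 3) in control pools, 662 ± 26.8 in 0.5 mg/L pools, 599 ± 23.9 in 1 mg/L pools, 658 ± 40.3 in 2 mg/L pools and 655 ± 45.7 in 10 mg/L pools (n = 4 each). The 1 mg/L pools, at 567 to 624, lay just below the lowest control pool, at 627, which is a description of these pools with no test.

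**Figure D3:**
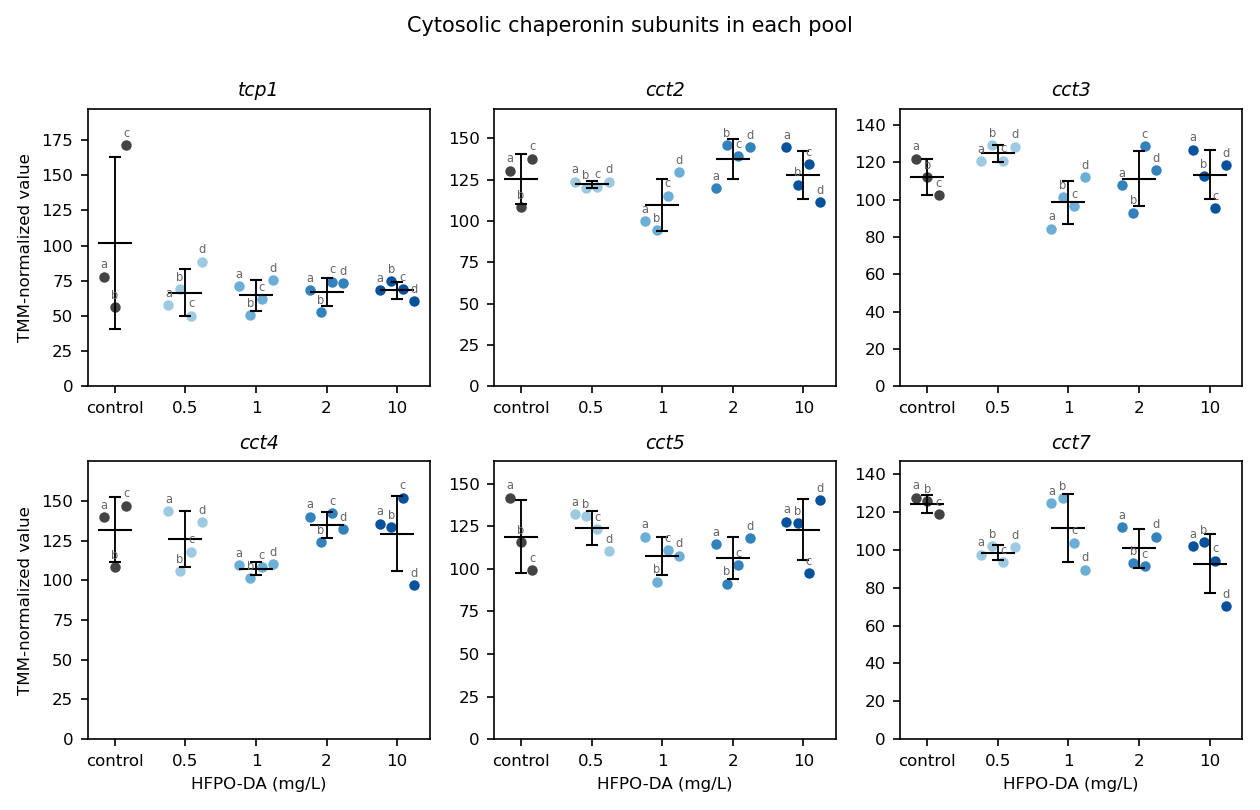
TMM-normalized values of 6 subunits of the cytosolic chaperonin in each pool, by exposure in mg/L. Points are pools with their letters, the long tick and bar are the group mean and SD (n = 3 for control and 4 for each exposure), and each axis starts at 0. Control pool c, at 171, stands apart for tcp1, and the lowest control pool of cct7, at 119, lies above all but 2 exposed pools.

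The mitochondrial chaperonin HSP60, encoded by hspd1, stood at 196, 142 and 175 in control pools, 168, 155, 167 and 109 in 0.5 mg/L pools, 109, 138, 151 and 117 in 1 mg/L pools, 148, 139, 138 and 149.5 in 2 mg/L pools and 179, 141, 151 and 111 in 10 mg/L pools. In 8 of 16 exposed pools hspd1 was below every control pool and in none above, and the groups overlapped at each exposure. The log2 fold change of hspd1 was -0.40 (SE 0.18) at 1 mg/L and -0.27 (SE 0.14) in the mean of the exposures (adjusted p = 0.980), or -0.17 without control pool a.

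J-domain proteins made up the largest group, with 32 members, of which 28 were tested, 0 were called and 14 had at least 10 reads per pool. In the mean of the exposures 19 of the 28 were below 0, with a median log2 fold change of -0.10, as for all members. Picked from these values as the member with the clearest separation, dnajc18 encodes a J-domain protein of the endoplasmic reticulum membrane in human cells. Its values were 17.0, 23.0 and 17.3 in control pools, 13.2, 12.7, 6.78 and 13.5 in 0.5 mg/L pools, 9.59, 17.5, 8.65 and 15.7 in 1 mg/L pools, 10.1, 10.9, 13.9 and 11.6 in 2 mg/L pools and 11.5, 12.3, 11.5 and 14.5 in 10 mg/L pools. In 15 of 16 exposed pools dnajc18 was below every control pool, and pool b at 1 mg/L lay between the control pools. The share of all genes with as many exposed pools below control was not counted. The log2 fold change was -0.74 (SE 0.33), -0.60 (SE 0.33), -0.69 (SE 0.31) and -0.59 (SE 0.30) in the order of the exposures and -0.65 (SE 0.29) in their mean, from -0.73 to -0.52 when any pool was left out, with adjusted p = 0.980. Over all pools dnajc18 had 258 reads, and its spread between pools was 0.34 on the log2 scale, below the 0.47 that counting alone gives.

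The genes dnajb1a and dnajb1b encode HSP40, the J-domain partner of HSP70 in the cytosol, which heat induces. Values of dnajb1a were 15.6, 23.0 and 11.8 in control pools, 8.26, 20.0, 14.9 and 10.3 in 0.5 mg/L pools, 13.4, 10.5, 5.77 and 7.86 in 1 mg/L pools, 11.2, 20.1, 17.0 and 6.75 in 2 mg/L pools and 11.5, 5.68, 9.44 and 7.26 in 10 mg/L pools. At 10 mg/L every pool of dnajb1a lay below every control pool, and the log2 fold change was -0.94 (SE 0.36, adjusted p = 0.967). Values of dnajb1b were 10.6, 17.5 and 12.6 in control pools, 8.26, 9.10, 13.6 and 7.05 in 0.5 mg/L pools, 13.4, 8.73, 10.1 and 6.93 in 1 mg/L pools, 11.2, 10.9, 13.9 and 4.82 in 2 mg/L pools and 27.5, 15.1, 17.8 and 9.67 in 10 mg/L pools. Pool d was the lowest of each exposure for dnajb1b, and its log2 fold change was -0.50 (SE 0.38), -0.46 (SE 0.38), -0.45 (SE 0.38) and 0.29 (SE 0.34) in the order of the exposures, with the opposite sign at 10 mg/L. In their mean it was -0.28 (SE 0.32), or -0.09 without control pool b and -0.43 without control pool a. The 10 mg/L pools of dnajb1a thus lay at 5.68 to 11.5 and those of dnajb1b at 9.67 to 27.5, beside control pools at 11.8 to 23.0 and 10.6 to 17.5.

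**Figure D4:**
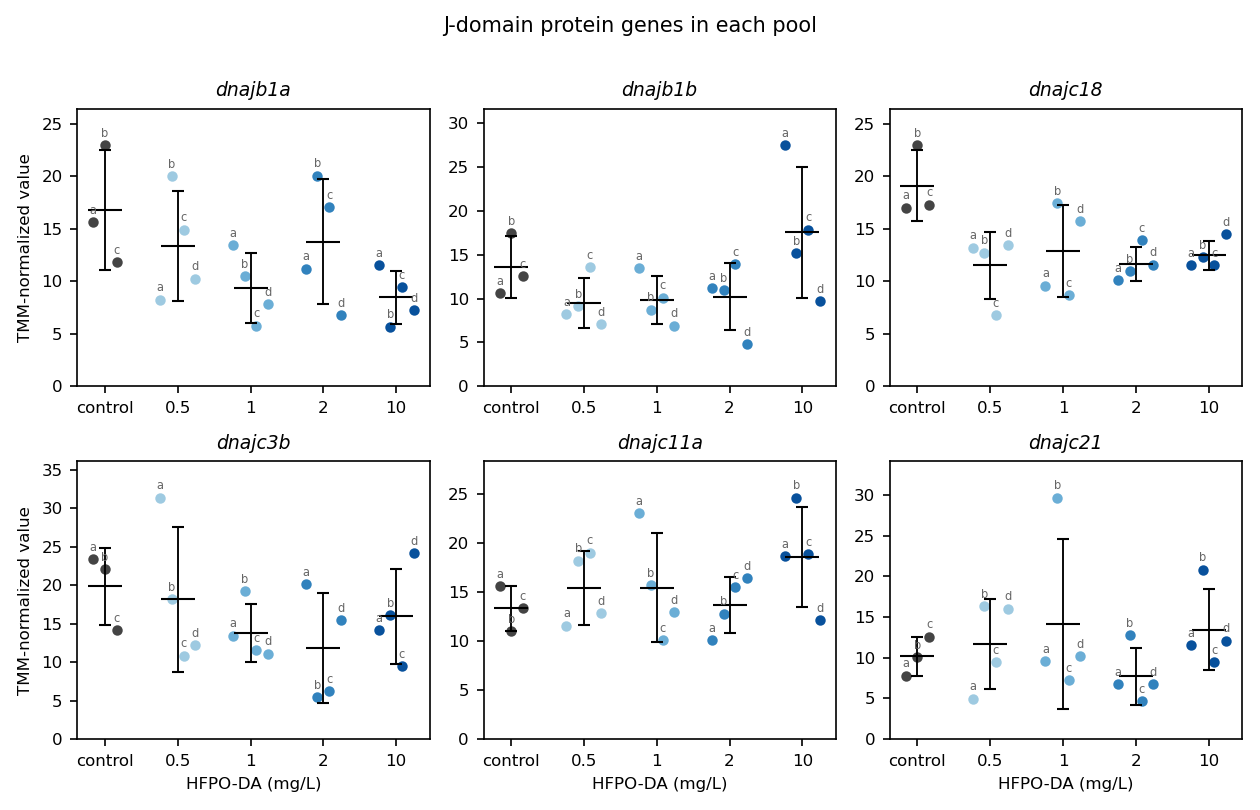
TMM-normalized values of 6 J-domain protein genes in each pool, by exposure in mg/L. Points are pools with their letters, the long tick and bar are the group mean and SD (n = 3 for control and 4 for each exposure), and each axis starts at 0. The control pools of dnajc18, from 17.0 up to 23.0, lie above all exposed pools but pool b at 1 mg/L, at 17.5.

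The gene dnajc3b encodes a BiP partner of the endoplasmic reticulum (P58IPK). It stood at 23.4, 22.1 and 14.2 in control pools, 31.4, 18.2, 10.9 and 12.2 in 0.5 mg/L pools, 13.4, 19.2, 11.5 and 11.1 in 1 mg/L pools, 20.2, 5.47, 6.19 and 15.4 in 2 mg/L pools and 14.2, 16.1, 9.44 and 24.2 in 10 mg/L pools. Pools b and c at 2 mg/L were low, the groups overlapped, and the log2 fold change at 2 mg/L was -0.89 (SE 0.37, adjusted p = 0.912). The mitochondrial J-domain protein gene dnajc11a gave 15.6, 11.0 and 13.4 in control pools, 11.6, 18.2, 19.0 and 12.8 in 0.5 mg/L pools, 23.0, 15.7, 10.1 and 12.9 in 1 mg/L pools, 10.1, 12.8, 15.5 and 16.4 in 2 mg/L pools and 18.6, 24.6, 18.9 and 12.1 in 10 mg/L pools. It was above all control pools in 8 of 16 exposed pools and below all in 2, with a log2 fold change of 0.43 (SE 0.31) at 10 mg/L. The gene dnajc21, needed in human cells to make ribosomes, gave 7.80, 10.1 and 12.6 in control pools, 4.95, 16.4, 9.50 and 16.0 in 0.5 mg/L pools, 9.59, 29.7, 7.21 and 10.2 in 1 mg/L pools, 6.72, 12.8, 4.65 and 6.75 in 2 mg/L pools and 11.5, 20.8, 9.44 and 12.1 in 10 mg/L pools. Its groups overlapped at every exposure, and its log2 fold change in the mean of the exposures was 0.06 (SE 0.36).

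The 22 other tested J-domain genes (dnaja1, dnaja2, dnaja2l, dnaja3b, dnajb12a, dnajb12b, dnajb14, dnajb4, dnajc1, dnajc10, dnajc12, dnajc15, dnajc17, dnajc19, dnajc2, dnajc25, dnajc28, dnajc3a, dnajc4, dnajc5aa, dnajc8 and dnajc9) include dnajb12b and dnajc25, which had 3 or fewer reads in each control pool. The others had log2 fold changes in the mean of the exposures from -0.67 (dnajc15) to 0.74 (dnajc17). Both of these had few reads, 115 and 63 over all pools, and were chosen here as the ends of the range. Those 8 of the 22 with at least 10 reads per pool kept between -0.19 (dnajc2) and 0.07 (dnajc9). The genes dnajb13, dnajb2, dnajb5 and dnajb9b had 4 to 13 reads in all and were not tested.

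HSP90 co-chaperones gave 4 tested members, 0 called and 4 below 0 in the mean of the exposures, with a median log2 fold change of -0.22. The gene ahsa1b encodes AHA1, which speeds up the ATPase of HSP90. Its values were 22.7, 29.4 and 25.2 in control pools, 33.0, 29.1, 28.5 and 21.8 in 0.5 mg/L pools, 24.9, 3.49, 18.7 and 12.5 in 1 mg/L pools, 37.0, 31.0, 21.7 and 20.7 in 2 mg/L pools and 25.7, 18.9, 17.8 and 21.8 in 10 mg/L pools. Pools b and d at 1 mg/L were low, pool a was the highest of each exposure, and the groups overlapped, with a log2 fold change of -1.05 (SE 0.39) at 1 mg/L (adjusted p = 0.998). Of all members ahsa1b had the smallest p for differences among the 4 exposures, with adjusted p = 0.964. In the mean of the exposures the log2 fold change was -0.27 for stip1 (HOP, which hands clients from HSP70 to HSP90), -0.16 for ptges3a and -0.05 for ptges3b, both p23 proteins. At 2 mg/L every pool of ptges3b was below every control pool, with group means of 38.3 ± 4.81 (SD, n = 4) and 47.1 ± 2.41 (SD, n = 3), and the log2 fold change was -0.30 (SE 0.21, adjusted p = 0.912).

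The FKBP prolyl isomerases had 9 members, of which 8 were tested and 0 called. In the mean of the exposures 3 were below 0 and 5 above, of which fkbp1ab and fkbp7 had 3 or fewer reads in each control pool. The gene fkbp1b encodes an isomerase that binds the ryanodine receptor of muscle. It stood at 22.7, 16.5 and 29.1 in control pools, 18.2, 20.0, 27.1 and 25.6 in 0.5 mg/L pools, 7.68, 8.73, 21.6 and 18.9 in 1 mg/L pools, 19.1, 14.6, 23.2 and 17.8 in 2 mg/L pools and 13.3, 19.9, 19.9 and 21.8 in 10 mg/L pools. Pools a and b at 1 mg/L were low, pools c and d lay within the control range, and the log2 fold change there was -0.76 (SE 0.35, adjusted p = 0.998). Values of fkbp9, an isomerase of the endoplasmic reticulum, were 53.2, 40.4 and 27.5 in control pools, 64.4, 41.9, 62.4 and 48.1 in 0.5 mg/L pools, 69.1, 38.4, 47.6 and 40.2 in 1 mg/L pools, 32.5, 43.8, 26.3 and 60.3 in 2 mg/L pools and 49.6, 38.8, 30.4 and 62.9 in 10 mg/L pools. The control pools spread widely, 5 of 16 exposed pools were above all of them, and the log2 fold change at 0.5 mg/L was 0.45 (SE 0.23, adjusted p = 0.813). The gene fkbp8, an isomerase of the outer mitochondrial membrane in human cells, had 162 reads over all pools and is named after its values were seen. It stood at 11.3, 13.8 and 13.4 in control pools, 4.95, 9.10, 10.9 and 7.05 in 0.5 mg/L pools, 11.5, 1.75, 2.88 and 6.47 in 1 mg/L pools, 12.3, 9.12, 10.8 and 6.75 in 2 mg/L pools and 4.43, 8.51, 9.44 and 9.67 in 10 mg/L pools. In 14 of 16 exposed pools fkbp8 was below every control pool, with a log2 fold change of -0.80 (SE 0.39) in the mean of the exposures (adjusted p = 0.980). The other tested members, fkbp14, fkbp1ab, fkbp2, fkbp3 and fkbp7, had 21 to 1525 reads in all, and fkbp1aa had 2 and was not tested.

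Small heat shock proteins and BAG proteins were thinly covered. Of 8 small heat shock genes 6 were tested, 0 were called, and none reached 10 reads per pool. Their sum over the 8 genes was 43.4 ± 13.0 (SD, n = 3) in control pools, 40.5 ± 9.77 in 0.5 mg/L pools, 45.4 ± 9.90 in 1 mg/L pools, 37.8 ± 8.93 in 2 mg/L pools and 37.9 ± 5.34 in 10 mg/L pools (n = 4 each), so the groups overlapped. The gene hspb9, named after its values were seen, stood at 5.67, 25.7 and 9.44 in control pools, 11.6, 10.9, 0.678 and 13.5 in 0.5 mg/L pools, 11.5, 1.75, 11.5 and 11.6 in 1 mg/L pools, 4.48, 0.912, 3.10 and 12.5 in 2 mg/L pools and 10.6, 5.68, 5.24 and 4.84 in 10 mg/L pools. It had 0 reads in 2 pools, and its log2 fold change at 2 mg/L was -1.46 (SE 0.56, adjusted p = 0.912). The others tested were hspb1, hspb3, hspb8, hspb15 and hspb11, and hspb6 and hspb7 had 6 and 4 reads in all and were not tested. Of the BAG genes, bag1 had a log2 fold change of -0.12 in the mean of the exposures, and bag2, bag3 and bag4 had 41, 33 and 90 reads in all. The muscle co-chaperone gene bag3, which works with HSPB8, had 0, 3 and 0 reads in control pools and between 0 and 6 in exposed pools, so no fold change is given. The rule rests on control reads, so it withholds a higher value from few reads while a lower one, as for hspb9, is given. The nucleotide exchange factor gene hspbp1, which no role above takes in, had 91 reads and a log2 fold change of -0.28.

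The SD between pools of a group exceeded the SD expected from counting in 25 of the 37 members with at least 10 reads. The share of all genes with as many reads for which this held is not given. Among the 37 members with at least 10 reads, the median SD between pools of a group was 0.33 on the log2 scale and the median SD expected from counting 0.24, and the median of their ratio was 1.12. For the 2874 genes with as many reads these were 0.36, 0.35 and 1.13. The ratio was 3.30 for hspa8 (0.15 against 0.045), 2.83 for hspa5 (0.39 against 0.14), 1.93 for tcp1, 1.75 for fkbp9, 1.72 for hspa4a, 1.71 for hspd1, 1.56 for dnajc5aa and 1.52 for ahsa1b. For the chaperonin subunits other than tcp1 it lay between 0.99 and 1.28, so the spread of their pools was about that of read counting. Molecular identifiers had served to remove PCR copies, and the expected SD covers counting error only.

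**Figure D5:**
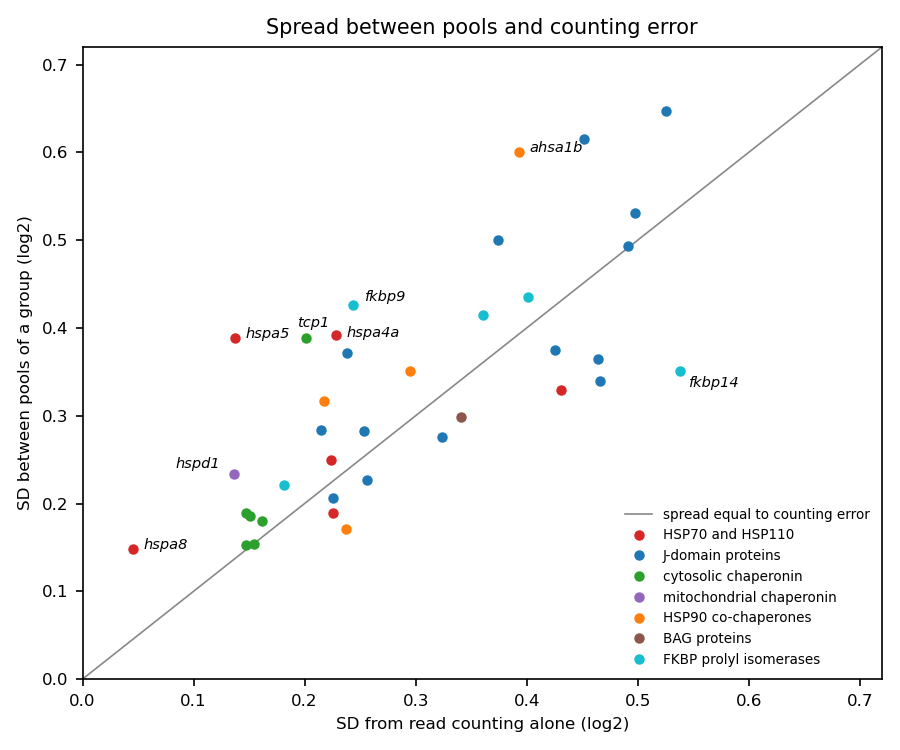
SD between pools of a group against the SD expected from read counting alone, both on the log2 scale, for the 37 members with at least 10 reads per pool. Colours mark roles and the line marks equality. hspa8 and hspa5 lie farthest above the line as a ratio, at 3.30 and 2.83, and the chaperonin subunits other than tcp1 lie close to it.

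The letters of the pools moved with some of these members, a pattern noticed after the values were seen. Pool a was the highest of all 5 groups for 2 of 37 members, hspa5 and hspa8, and for 8 of the 2874 genes with as many reads (0.278%), among them the HSP90 gene of the endoplasmic reticulum, hsp90b1. Pool d was the lowest of all 4 exposures for 2 of 37 members, hspa4a and dnajb1b, and for 40 of 2874 genes (1.39%), among them the HSP90 genes hsp90aa1.1 and hsp90aa1.2. It was the highest of all 4 exposures for 0 members and for 39 of 2874 genes (1.36%). The values of hsp90aa1.2 in pools d were 121, 104, 97.9 and 145 in the order of the exposures, and those of the other exposed pools lay between 168 and 439. The pools d of the 3 lower exposures had 443076, 581494 and 579196 reads, the deepest of their groups, and pool d at 10 mg/L had 104350, the shallowest of its group. Control has no pool d among the values analysed, so a low or high pool d enters only the exposed side. With pools a to c alone, the log2 fold change in the mean of the exposures moved from -0.50 to -0.34 for hspa4a, from -0.28 to -0.08 for dnajb1b and from -0.07 to 0.09 for hspa5, while it was -0.72 for dnajc18 and -0.26 for cct7, and 0 members were called. The log2 fold change of hspa8 moved from -0.04 to 0.0022. What the letters stand for is not given in the sources used here, and their part in the members' values was not tested.

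The next question was which members went along with a heat-inducible HSP70 gene, taken as an index, within groups. The index was hsp70.3, the inducible HSP70 gene with the most reads, and the slope is the change in a gene's log2 value for each unit of log2 of hsp70.3, with the group as a term. Of 65 members 0 were called (0% of all 6932 other genes). At an unadjusted p under 0.05, 3 members had a positive slope (4.62% against 3.56% of all genes) and 3 a negative slope (4.62% against 2.6%). The positive slopes were 0.20 (SE 0.07) for hspa5, 0.12 (SE 0.06) for hspd1 and 0.42 (SE 0.18) for hspb8, with adjusted p values of 0.712, 0.787 and 0.737. The negative slopes were -0.24 (SE 0.11) for dnajc18, -0.42 (SE 0.20) for dnajb4 and -0.18 (SE 0.08) for dnajc5aa, the cysteine string protein of synaptic vesicles. The other inducible gene, hsp70l, had a slope of 0.11 (SE 0.21), and dnajb1a and dnajb1b had slopes of -0.08 (SE 0.14) and 0.08 (SE 0.13). The count of 6 ranged from 3, without pool c at 1 mg/L and also without control pool b, to 9, without control pool c. It was 3 with the letters of the pools as a block, and the shares of all genes under these settings are not given. Over all genes apoea had the smallest p, with a slope of 0.36 (adjusted p = 0.126), and tfa, a liver and yolk marker, had a slope of 0.33 (adjusted p = 0.200). Whether the index followed a heat shock response was not tested. With 163 reads over 19 pools the index itself carries a large counting error.

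The same fit with tcp1 as the index asked whether the subunits of the chaperonin varied together. Of 65 members 0 were called (0% of all genes), and 1 member, dnajc9, had a negative slope at an unadjusted p under 0.05 (1.54% against 1.96% of all genes), against 0 with a positive slope (2.37% of all genes). Over all genes the crystallin gene crygmxl2 had the smallest p, with a slope of 0.66 (adjusted p = 0.114). The crystallin genes crygm2d10 and crygm2d7 had slopes of 0.63 and 0.59 (both adjusted p = 0.135). The slopes of the other subunits were 0.18 (SE 0.15) for cct2, 0.0018 (SE 0.15) for cct3, 0.25 (SE 0.15) for cct4, -0.10 (SE 0.15) for cct5 and -0.006 (SE 0.16) for cct7, all with an adjusted p of at least 0.995. The slope of subunit genes on tcp1 was thus within 2 SE of 0 for all 5, a range that includes positive slopes larger than those found. Control pool c stood alone on the index, with tcp1 at 171 against 78.0 and 56.1 in control pools a and b. In that pool cct3, cct5 and cct7 were the lowest of the control pools, and cct2 and cct4 were the highest. These slopes therefore lean on 1 pool, and they are not given without it. The number of members at an unadjusted p under 0.05 was 4 without control pool c, 5 without control pool b and 4 without pool a at 1 mg/L. It was 2 or 3 without control pool a, pool a at 0.5 mg/L, pool b at 1 mg/L, pool a or d at 10 mg/L or any pool at 2 mg/L. The share of all genes in each of these fits is not given.

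Members without overlap between an exposure and control, among the 37 with at least 10 reads, were few and all were lower. At 0.5 mg/L they were cct7 and dnajc18 (2 of 37, 5.41%, against 4.8% of 2874 genes), with 0 higher (2.09% of genes). At 1 mg/L they were hspa14 and hspa4a (5.41% against 3.27%), with 0 higher (1.08%). At 2 mg/L they were cct7, dnajc18 and ptges3b (8.11% against 4.07%), with 0 higher (1.74%), and at 10 mg/L cct7, dnajb1a and dnajc18 (8.11% against 3.48%), with 0 higher (1.77%). Over all 16 exposed pools 0 members lay wholly below the control pools (0.104% of genes) and 0 wholly above (0%).

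Folding genes that the symbols did not take in were read from lists chosen with earlier results of these data known. Of 26 folding and stress genes, among them the HSP90 genes, hsf2, the prefoldins and the cyclophilins, 18 were in the table and 17 were tested. Only hsp90aa1.2 was called, at 10 mg/L, and in the mean of the exposures 11 of 17 were below 0 with a median log2 fold change of -0.07. Of 20 genes of folding in the endoplasmic reticulum and of the unfolded protein response, 16 were tested and 0 were called in any of the comparisons with control. Averaged over the exposures, 14 of these 16 were below 0, with a median of -0.13. The log2 fold change there was -0.46 (SE 0.18) for hyou1, an HSP110 of the endoplasmic reticulum, 0.35 (SE 0.18) for p4hb, protein disulfide isomerase, and -0.02 (SE 0.13) for xbp1, a transcription factor of the unfolded protein response, each with an adjusted p of at least 0.980.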

How the data were processed

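RNA of whole embryos was extracted with TRIzol and sequenced after oligo-dT priming with molecular identifiers. The authors demultiplexed with BBTools, handled molecular identifiers with UMI-tools (version 1.1.2), trimmed with Trimmomatic (version 0.40), removed ribosomal reads with SortMeRNA, aligned with STAR and counted with HTSeq (version 0.13.5). The labels name the genome builds GRCz10 and GRCz11. The deposited values are TMM-normalized read counts, a signal with zeros replaced by 0.5 reads. All were whole multiples of the value of a read in their pool, within a tolerance of 0.01, so reads were recovered from them. The total per pool, from 104350 to 581494 reads, sets the counting error.

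Every pool took its group from its label. Each exposure was fitted against the 3 control pools with limma (version 3.58.1, R version 4.3.3, eBayes with trend, two-sided) on log2(value + 0.5), over 6933 genes with a mean CPM above 2.75, and called at a Benjamini-Hochberg adjusted p under 0.1. The test used in the study, noiseqbio, was not installed, and limma took its place. With noiseqbio the study reported many more genes at each exposure, so the counts here are not those of its test. The mean of the exposures, the differences among them and the slopes on hsp70.3 and tcp1 came from fits of all 19 pools. As alternatives, edgeR (version 4.0.16, quasi-likelihood test) and DESeq2 (version 1.42.0) were run on recovered reads, and scaling, filter, pseudocount, replaced zeros, trend, depth term, replicate block and each pool left out were tried. The alternatives with pools a to c only and with members of at least 10 reads were chosen after seeing the data. The fits were tested on simulated data, with changes placed in genes with at least 10 reads per pool on average. Of 100 genes changed 2-fold, limma called 52% at 10 mg/L and 55% in the mean of the exposures. Of 100 genes changed 4-fold, it called 95% and 97%. For differences among the exposures it called 56% of the 2-fold and 100% of the 4-fold genes, and 13.3% of its calls were false. Of 200 genes made to follow tcp1, it called 44.5%. All these genes were changed together, with the same dispersion for every gene. With fewer changed genes the adjusted p is stricter, so these rates may be too high for the real data. Changes of 2-fold or less could thus be missed, and 4-fold changes could be missed too. Genes were matched by symbol, and 0 columns of values were left unused.

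The members and lists were chosen with earlier results of these data known. Values per pool are given for members with at least 10 reads per pool on average that were chaperonin or HSP70 genes, or were among the 10 with the largest absolute log2 fold change in the mean of the exposures or the 5 at a single exposure. Members whose control pools all held at most 3 reads get no fold change. As that rule looks at control pools only, it leaves out rises from few reads but not falls to few reads. No sequences are shown.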

Additional observations from a re-analysis of the deposited data

Results flagged for a closer look

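In 3 of 88 groups of 4 pools, taken over the 22 members named by the rule and the 4 exposures, a pool stood apart from the other 3 by Dixon's ratio, the gap to the nearest pool over the range of the group. Chance flags about 1 in 20 groups. The J-domain gene dnajc18 was lowest in pool c at 0.5 mg/L, with a value of 6.78 and a ratio of 0.891. The J-domain gene dnajc21 was highest in pool b at 1 mg/L, with a value of 29.7 and a ratio of 0.868. The HSP70 gene hspa14 was highest in pool a at 2 mg/L, with a value of 24.7 and a ratio of 0.909. Without these pools, the log2 fold change in the mean of the exposures was -0.60 for dnajc18 (-0.65 with it), -0.04 for dnajc21 (0.06 with it) and -0.44 for hspa14 (-0.38 with it).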

How the results depend on the processing

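The count of called members stayed at 0 in all 8 comparisons under every alternative run, each pool left out included. For the slopes, edgeR and DESeq2 were not run. Over all genes, with a pool left out, at most 46, 1, 8 and 3 were called in the order of the exposures, and 31 in their mean. Under the other settings these were at most 29, 2, 3 and 2, and 5 in the mean. In the remaining comparisons at most 3 genes were called. The median log2 fold change of the tested members in the mean of the exposures, -0.10, ran from -0.18 to -0.08 with a pool left out and from -0.19 to -0.05 under the other settings. The labels do not say what the letters of the pools mark, and not every pair correlated, so the letters were not taken to pair the pools. Over 36 pairs of pools of the same letter the median correlation of deviations from the group means was 0.008 (from -0.058 to 0.181), with 3 pairs over 0.1. Over 108 pairs of other letters it was -0.0009, with 1 pair over 0.1, and 9 of 19 pools correlated best with their own letter, a hint of pairing from the data and not from the design. With the letters as a replicate block, 0 members were called and the median was -0.07. In that fit 7 members rather than 3 were at an unadjusted p under 0.05 at 0.5 mg/L, and the share of all genes there is not given. Of the named members, cct2, cct3, cct4, cct5, dnajc21, fkbp9, hspa4b, hspa5 and hspa8 changed sign under at least 1 setting, none of them called. Leaving out control pool c moved fkbp9 from 0.22 to -0.03, and leaving out control pool a moved hspa5 from -0.07 to 0.15 and dnajc21 from 0.06 to -0.10. Single pools left out also moved other named values by over 1.5 times: without control pool a hspa9 went from -0.24 to -0.09, without control pool b dnajb1a went from -0.61 to -0.36 and dnajc11a from 0.20 to 0.07, without control pool c fkbp1b went from -0.32 to -0.13, and without pool b at 1 mg/L ahsa1b went from -0.29 to -0.15. With 10 to 20 reads per pool, as for dnajc18, dnajb1a or hspa14, the SD from counting alone was near 0.47 on the log2 scale. A difference of about that size or smaller in a single pool cannot be told from counting error, and no limit of detection was tested.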
